A study of Homo sapiens with 18 samples.

Results

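Genes for the import of amino acids and for the synthesis of non-essential ones were followed in ARPE-19, an immortalized human retinal pigment epithelium (RPE) cell line. The 10 genes were taken by symbol from the 23411 symbols of the count data, and all were found. They comprised 6 carriers of the plasma membrane, SLC7A1, SLC7A5, SLC38A1, SLC38A2, SLC1A4 and SLC1A5, and 4 enzymes, ASNS, PYCR1, ALDH18A1 and GPT2. mRNA was measured in 18 samples, 3 in each of 6 groups. Control cells carried a lentiviral Cas9 vector that lacked a gRNA, and NRF2 ΔC cells carried the same vector with a gRNA against exon 5 of NFE2L2, the gene of the transcription factor NRF2. The edited protein lacks its C-terminal part, and the 9 NRF2 ΔC samples came from 1 clone, so the edit and other features of that clone cannot be told apart. Cells of each line received water (untreated), 1 mM NACET, the cell-permeable ethyl ester of N-acetylcysteine, or 0.2 mM H2O2, an oxidant. Sources differ on the schedule. The methods of the study and the series text describe 40 h in 10 % serum and then 8 h of treatment, the labels of the samples 22 h in 1 % serum and then 2 h, so the time behind the values is uncertain.

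SLC7A1 carries cationic amino acids such as arginine and lysine, and SLC7A5, joined to SLC3A2, exchanges large neutral amino acids such as leucine against glutamine. SLC38A1 and SLC38A2 take up glutamine and alanine with sodium, and SLC1A4 and SLC1A5 exchange alanine, serine, cysteine and, for SLC1A5, glutamine. ASNS makes asparagine from aspartate and glutamine, ALDH18A1 and PYCR1 catalyse an early and the last step of proline synthesis in mitochondria, and GPT2 is the mitochondrial alanine aminotransferase. When amino acids are short or the cell is stressed, kinases that phosphorylate the initiation factor eIF2α slow general translation and favour that of ATF4, a transcription factor with many target genes for amino acid supply. NRF2, in turn, binds antioxidant response elements together with small MAF proteins.

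The ATF4 and C/EBP composite element is commonly written with the core TGATGNAA, and the antioxidant response element with TGACNNNGC. Both were looked for, on either strand, in RefSeq promoter windows of 300 bases, from 250 before to 50 after a gene start (GRCh38.p14), which hold 13 windows for 8 of the 10 genes and none for PYCR1 and GPT2. TGATGNAA was found in 5 of the 13 windows, in SLC7A1, SLC38A1, SLC1A4, SLC1A5 and ASNS, and in 3.62 % of all 35116 windows. TGACNNNGC was found in 3 windows, of SLC7A1, SLC7A5 and SLC1A5, and in 13.3 % of all windows. Windows of 1 gene can overlap, and 4 of the 8 genes have more than 1. The shares describe letters, not bound sites. The window of ASNS, the gene with the largest H2O2 change among the 10, is shown with its match in capitals, 68 bases before the start at chr7:97872359-97872658, minus strand.
ASNS promoter: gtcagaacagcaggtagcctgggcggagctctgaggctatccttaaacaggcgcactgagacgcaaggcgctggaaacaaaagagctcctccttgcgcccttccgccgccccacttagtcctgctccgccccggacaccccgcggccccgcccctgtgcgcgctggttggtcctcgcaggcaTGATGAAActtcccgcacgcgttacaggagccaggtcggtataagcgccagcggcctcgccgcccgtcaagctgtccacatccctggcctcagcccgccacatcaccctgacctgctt
The 4 other matches to TGATGNAA are shown with the bases on either side, read on the strand that carries the core, so that the cores in capitals can be compared.
SLC7A1, 7 bases after a start: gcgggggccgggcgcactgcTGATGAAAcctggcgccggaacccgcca
SLC38A1, 4 bases before a start: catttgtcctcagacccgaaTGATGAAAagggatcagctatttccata
SLC1A4, 7 bases before a start: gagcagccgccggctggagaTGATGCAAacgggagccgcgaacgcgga
SLC1A5, 97 bases before a start: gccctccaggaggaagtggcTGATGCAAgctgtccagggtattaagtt
ASNS, SLC7A1 and SLC38A1 have A at the free position of the core, and SLC1A4 and SLC1A5 have C. The start of SLC1A5 with this match is the one furthest downstream of its 3 annotated windows.
The 3 matches to the antioxidant response element core are given in the same way.
SLC7A1, 85 bases before a start: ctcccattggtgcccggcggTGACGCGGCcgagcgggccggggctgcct
SLC7A5, 2 bases before a start: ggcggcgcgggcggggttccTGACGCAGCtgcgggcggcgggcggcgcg
SLC1A5, 111 bases before a start: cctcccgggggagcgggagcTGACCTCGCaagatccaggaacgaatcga

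Levels are given as CPM, counts scaled to a common library size after TMM normalization for composition. The samples held 16673306 to 25951154 reads on genes (median 21447433.5). Of 13 RPE markers, RPE65, RLBP1, TYR and TTR stayed below 1 CPM in every sample, so the labelled cell type was without several of its defining transcripts. Of the other markers, MITF was at 165 CPM in untreated control cells, 125 CPM with NACET and 128 CPM with H2O2. OTX2 was at 152, 115 and 128 CPM in the same order. LRAT (4.97 CPM) and PMEL (2.18 CPM) were low in untreated control cells. The summed RPE markers ran from 1446 to 1585 CPM in untreated cells of both lines, from 1269 to 1457 CPM with NACET and from 1134 to 1210 CPM with H2O2. H2O2 samples lay below untreated ones in this sum in both lines, and so did NACET samples in control cells (1273 to 1383 against 1497 to 1574 CPM), and its part in the results below was not tested. Most of the sum came from 2 keratins, KRT8 (mean of untreated control cells 615 CPM, with H2O2 438 CPM) and KRT18 (428 and 297 CPM). BEST1 went the other way with H2O2, from 0.459 to 1.496 CPM in control and from 0.24 to 3.32 CPM in NRF2 ΔC cells. Summed endothelial and macrophage markers did not exceed 3.24 CPM in any sample, and of the photoreceptor markers PDE6B alone passed 1 CPM, in control cells. NFE2L2 itself, which was counted over its whole length and so does not report on the edit, ranged from 102 to 152 CPM, and the lines did not differ detectably when untreated (log2 0.02, standard error 0.09, adjusted p = 0.963). In bulk samples a change in the makeup of the culture and a change of RNA per cell cannot be told apart.

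Per kilobase of transcript, untreated control cells had most SLC7A5 mRNA, at 82.4 ± 6.21 CPM per kb (SD, n = 3), followed by PYCR1 at 32.6 ± 3.02 and ALDH18A1 at 30.98 ± 2.95. The samples of PYCR1 and ALDH18A1 overlapped in this order. SLC1A5 at 21.9 ± 2.73, SLC7A1 at 16.2 ± 1.20, SLC38A1 at 13.1 ± 2.18, ASNS at 12.0 ± 4.23, GPT2 at 9.41 ± 0.881 and SLC1A4 at 3.99 ± 0.752 CPM per kb came next, and in this order SLC38A1 overlapped with ASNS, and ASNS with GPT2. In NRF2 ΔC cells with H2O2, ASNS stood first at 190 ± 30.6 CPM per kb, above SLC7A5 at 118 ± 17.8, with no overlap. In control cells with H2O2, SLC7A5 (123 ± 25.1) and ASNS (98.7 ± 23.4) overlapped. SLC38A2 was last in all 6 groups, at no more than 0.276 CPM per kb on average. The annotation behind the counts is not given in the sources used here, and whether it bears on this low level was not tested.

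H2O2 raised most of the supply genes in both lines. In control cells 7 of the 10 passed edgeR's test (adjusted p under 0.05) and the limit of 0.6 on the log2 scale, all higher, where 2.96 % of the 13691 genes tested were called higher and 6.33 % in either direction. In NRF2 ΔC cells 8 of 10 were called, all higher, against 4.26 % of 13543 genes called higher and 9.81 % in all. The median log2 fold change over the tested genes among the 10 was 1.01 in control (9 tested) and 1.30 in NRF2 ΔC cells (10 tested), against -0.00381 and -0.00864 over all genes tested. H2O2 samples lay wholly above the untreated samples for 8 genes in each line, where 17.7 % and 18.0 % of 14153 genes did so. ALDH18A1 was called in neither line and SLC38A2 was too low to be tested in control cells. With each sample left out in turn, SLC7A1, SLC1A4, ASNS, PYCR1 and GPT2 were always called in both lines, and so were SLC1A5 in control and SLC7A5 in NRF2 ΔC cells.

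NACET gave fewer calls. It called 1 of 10 in control cells, SLC1A5, where 1.39 % of 13696 genes were called higher and 2.75 % in all, and 1 of 10 in NRF2 ΔC cells, ASNS, where 0.458 % of 13542 genes were called higher and 1.39 % in all. With the replicate number as a block, which pairs samples within a line, these counts were 2 (SLC1A5, ASNS) and 3 (SLC1A4, SLC1A5, ASNS), against 3.65 % and 3.67 % of genes called higher and 7.49 % and 8.82 % in all. The median log2 fold change of the tested genes among the 10 was 0.48 for control and 0.45 for NRF2 ΔC cells, and -0.00571 and -0.00669 over all genes. DESeq2, without the block, called 2 and 3, against 4.22 % and 4.29 % of genes. NACET samples lay wholly above the untreated ones for 6 genes in control and 5 in NRF2 ΔC cells, where 12.6 % and 12.8 % of all genes did so. SLC7A5 was lower with NACET in all 3 replicate numbers of both lines. The untreated samples are shared between the NACET and the H2O2 comparison of a line, so their values are not independent of each other.

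**Figure D1:**
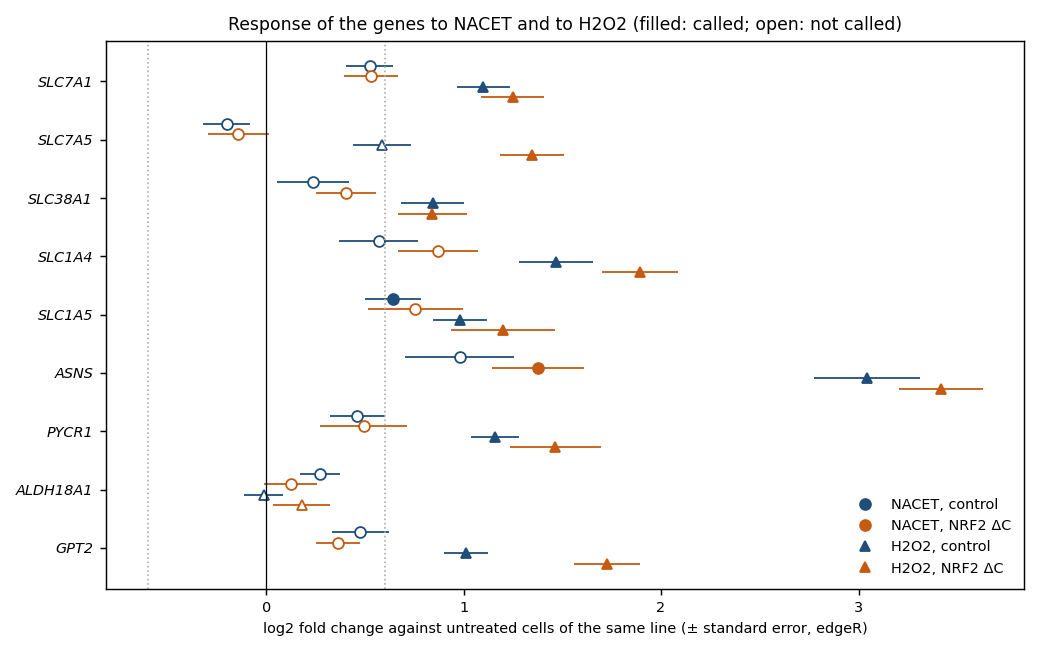
Fitted log2 fold change against untreated cells of the same line (horizontal axis, with standard error) for 9 genes, in the NACET (circles) and H2O2 (triangles) comparisons of control (blue) and NRF2 ΔC cells (orange); SLC38A2, not tested in control cells, is left out. Filled symbols passed the test and the limit of 0.6 in size (dotted lines), and the largest values are those of ASNS with H2O2, at 3.04 and 3.42.

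ASNS (chr7:97480989-97501854, GRCh37, minus strand, 13 exons) showed the largest change of the 10. In untreated control cells it was at 20.8, 40.01 and 25.02 CPM in replicates 1 to 3, with NACET at 39.98, 71.7 and 56.4 CPM and with H2O2 at 173, 281 and 252 CPM. Replicate 2 was the highest in each of these groups, and the lowest NACET sample lay just under the highest untreated one. The H2O2 rise was 3.04 (log2, standard error 0.27, adjusted p = 0.00115). NACET gave 0.98 (log2, standard error 0.28, adjusted p = 0.0979), not called, and with the replicate block 0.99 (log2, adjusted p = 1.15e-33), called. The block fit had 2 residual degrees of freedom and a prior of 382, so its p-value rests almost wholly on spread borrowed from other genes. The NRF2 ΔC line held 31.6, 44.9 and 48.7 CPM untreated, 78.1, 139 and 113 CPM with NACET and 371, 512 and 476 CPM with H2O2, and the 3 groups did not overlap. There H2O2 gave 3.42 (log2, standard error 0.21, adjusted p = 0.000291), and NACET gave 1.38 (log2, standard error 0.23, adjusted p = 0.0348). The NACET call was lost without NRF2 ΔC untreated replicate 2 or 3 or NACET replicate 2 or 3 (log2 1.19 to 1.5, adjusted p = 0.0940 to 0.176). Of the 32-base windows along the exons of ASNS 84.5 % occur once in the genome, and a read-through non-coding transcript of the same strand covers 99.5 % of its exon bases in the reference annotation, so reads of these cannot be told apart.

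PYCR1 (chr17:79890260-79900288, GRCh37, minus strand, 7 exons) reduces pyrroline carboxylate to proline. Control cells had 66.3, 79.2 and 76.6 CPM untreated, 82.8, 117 and 104 CPM with NACET and 140.4, 185 and 169 CPM with H2O2, and no group overlapped another. It rose with H2O2 by 1.16 (log2, standard error 0.12, adjusted p = 0.00202), whereas the NACET difference of 0.46 (log2, standard error 0.14, adjusted p = 0.112) was not called. NRF2 ΔC cells had 68.3, 119.6 and 94.6 CPM untreated, 105, 155 and 144 CPM with NACET and 205, 294 and 293 CPM with H2O2. Replicate 1 was the lowest in each of these groups, and the untreated and NACET samples overlapped. H2O2 gave 1.46 (log2, standard error 0.23, adjusted p = 0.00761), and NACET gave 0.49 (log2, standard error 0.22, adjusted p = 0.283), not called. Other annotated genes overlap 19.8 % of its exon bases, and the counting did not use the strand.

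ALDH18A1 (chr10:97365698-97416468, GRCh37, minus strand, 18 exons), whose product makes the pyrroline carboxylate precursor from glutamate, passed the test in none of the 11 comparisons. Its group ranges in control cells were 93.8 to 114 CPM untreated, 118 to 130.3 CPM with NACET and 95.3 to 108 CPM with H2O2. The NRF2 ΔC ranges were 93.1 to 123, 108 to 122 and 113 to 125 CPM. The H2O2 differences were -0.01 (log2, standard error 0.10, adjusted p = 0.951) for control and 0.18 (log2, standard error 0.14, adjusted p = 0.428) for NRF2 ΔC cells. Control samples with NACET all lay above the untreated ones, but the difference of 0.27 (log2, standard error 0.10, adjusted p = 0.183) was not called.

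GPT2 (chr16:46918274-46965201, GRCh37, plus strand, 12 exons) was at 37.4, 41.1 and 34.1 CPM in untreated control cells, at 52.1, 60.6 and 42.9 CPM with NACET and at 72.5, 85.1 and 69.2 CPM with H2O2. The H2O2 samples stood above all others of the line, and the rise was 1.01 (log2, standard error 0.11, adjusted p = 0.00259). NRF2 ΔC cells started from nearly the same level, 40.5, 36.6 and 33.7 CPM, and reached 104, 149.7 and 119 CPM with H2O2, a rise of 1.73 (log2, standard error 0.17, adjusted p = 0.00167). With NACET they held 46.9, 49.4 and 48.04 CPM, the narrowest group of the gene. The NACET differences of 0.48 (log2, standard error 0.14, adjusted p = 0.112) in control and 0.36 (log2, standard error 0.11, adjusted p = 0.137) in NRF2 ΔC cells were not called, although NACET and untreated samples did not overlap in either line.

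Among the carriers SLC1A4 had the largest H2O2 changes. SLC1A4 (chr2:65215611-65250999, GRCh37, plus strand, 8 exons) was at 15.4, 22.03 and 17.1 CPM in untreated control cells, at 22.3, 34.2 and 23.96 CPM with NACET and at 41.4, 63.3 and 45.99 CPM with H2O2, and replicate 2 was highest each time. H2O2 gave a rise of 1.47 (log2, standard error 0.19, adjusted p = 0.00419). NRF2 ΔC cells held 13.3, 20.8 and 15.1 CPM untreated, 24.9, 35.7 and 30.7 CPM with NACET and 55.5, 65.4 and 64.8 CPM with H2O2, with no overlap, and H2O2 gave 1.89 (log2, standard error 0.19, adjusted p = 0.00168). NACET gave 0.57 (log2, standard error 0.20, adjusted p = 0.156) in control and 0.87 (log2, standard error 0.20, adjusted p = 0.0742) in NRF2 ΔC cells, neither called. The NRF2 ΔC difference with NACET was called with the replicate block (log2 0.88, adjusted p = 1.79e-06) and without NACET replicate 1 (log2 0.999, adjusted p = 0.0372).

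SLC1A5 (chr19:47278140-47291851, GRCh37, minus strand, 8 exons) was at 59.2, 57.9 and 72.1 CPM in untreated control cells and at 81.1, 102 and 110.3 CPM with NACET, and these samples did not overlap. The rise of 0.64 (log2, standard error 0.14, adjusted p = 0.0487) was the only NACET call of the 10 genes in control cells, and leaving out any single sample of the 6 ended it (log2 0.55 to 0.76, adjusted p = 0.0555 to 0.216). H2O2 samples of this line were at 106, 146 and 122 CPM, a rise of 0.98 (log2, standard error 0.14, adjusted p = 0.00535). NRF2 ΔC replicates were spread more widely, with 53.2, 100.4 and 89.4 CPM untreated, 110.2, 148 and 158 CPM with NACET and 141, 238 and 188 CPM with H2O2. Replicate 1 was lowest in the 3 groups. H2O2 gave 1.20 (log2, standard error 0.26, adjusted p = 0.024), a call lost without untreated or H2O2 replicate 2 or 3 (log2 1.01 to 1.38, adjusted p = 0.0572 to 0.111). NACET gave 0.75 (log2, standard error 0.24, adjusted p = 0.149), and with the replicate block 0.79 (log2, adjusted p = 3.12e-06). Other annotated genes overlap 27.6 % of its exon bases.

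SLC7A1 (chr13:30083551-30169825, GRCh37, minus strand, 13 exons) was at 111, 128 and 117 CPM in untreated control cells, at 164, 193 and 150.5 CPM with NACET and at 235, 307 and 219 CPM with H2O2, in 3 groups that did not overlap. Its rise with H2O2 was 1.10 (log2, standard error 0.13, adjusted p = 0.00347), and the NACET difference was 0.52 (log2, standard error 0.12, adjusted p = 0.0536), called only without NACET replicate 3 (log2 0.60, adjusted p = 0.0412). NRF2 ΔC samples were at 116, 159 and 140.5 CPM untreated, 191, 219 and 199 CPM with NACET and 324, 379.5 and 302 CPM with H2O2, again without overlap. H2O2 gave 1.25 (log2, standard error 0.16, adjusted p = 0.00403) and NACET 0.53 (log2, standard error 0.14, adjusted p = 0.098), not called.

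SLC7A5 (chr16:87863629-87903113, GRCh37, minus strand, 10 exons) was the carrier that lay lower with NACET in every pair, and the lines differed in it. Control cells had 380.1, 401 and 345 CPM untreated, 293, 371 and 308 CPM with NACET and 532, 689 and 466 CPM with H2O2. NACET samples overlapped the untreated ones (log2 -0.20, standard error 0.12, adjusted p = 0.395), and the H2O2 difference of 0.58 (log2, standard error 0.15, adjusted p = 0.0362) passed the test but not the fold limit. Without H2O2 replicate 3 it passed both (log2 0.70, adjusted p = 0.0238). NRF2 ΔC cells started lower, at 201, 237 and 183 CPM, held 183, 224 and 164 CPM with NACET and reached 480.4, 629 and 498 CPM with H2O2, the range of control cells with H2O2. The rise with H2O2 was 1.35 (log2, standard error 0.16, adjusted p = 0.00339), while NACET gave -0.14 (log2, standard error 0.15, adjusted p = 0.683). Of its exon windows of 32 bases 93.4 % occur once in the genome, and pseudogenes of SLC7A5 are counted as separate symbols.

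SLC38A1 (chr12:46576846-46663800, GRCh37, minus strand, 17 exons) ranged over 85.5 to 118 CPM in untreated control cells, 94.8 to 145 CPM with NACET and 153 to 216 CPM with H2O2. It rose with H2O2 by 0.84 (log2, standard error 0.16, adjusted p = 0.0156), a call lost without H2O2 replicate 2 (log2 0.74, adjusted p = 0.0792). NRF2 ΔC cells gave 96.8 to 116, 115 to 164 and 146 to 227 CPM in the same order, and replicate 3 was lowest in all 6 groups of both lines. There H2O2 gave 0.84 (log2, standard error 0.18, adjusted p = 0.0213), lost without untreated replicate 2 or 3 or H2O2 replicate 2 (log2 0.78 to 0.91, adjusted p = 0.0685 to 0.103). NACET gave 0.24 (log2, adjusted p = 0.521) in control and 0.41 (log2, adjusted p = 0.201) in NRF2 ΔC cells, not called.

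SLC38A2 (chr12:46751971-46766556, GRCh37, minus strand, 16 exons) was nearly without reads. It had 4 to 59 counts per sample, 0.196 to 3.12 CPM, and was tested in 6 of the 11 comparisons. The highest values, 3.12, 1.69 and 1.37 CPM, belonged to control NACET replicate 2, NRF2 ΔC NACET replicate 3 and NRF2 ΔC untreated replicate 1, whose partners in the group were below 1 CPM. All 32-base windows of its exons occur once in the genome, and no other gene of the reference annotation overlaps them. That annotation may differ from the one used for counting, and the cause of the low counts was not tested. H2O2 in NRF2 ΔC cells gave -1.04 (log2, standard error 0.52, adjusted p = 0.219), not called. With the replicate block, which called 9 of the 10 genes against 18.7 % of all, it was called lower (log2 -0.99, adjusted p = 0.0291), on counts of 6 to 28 per sample.

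**Figure D2:**
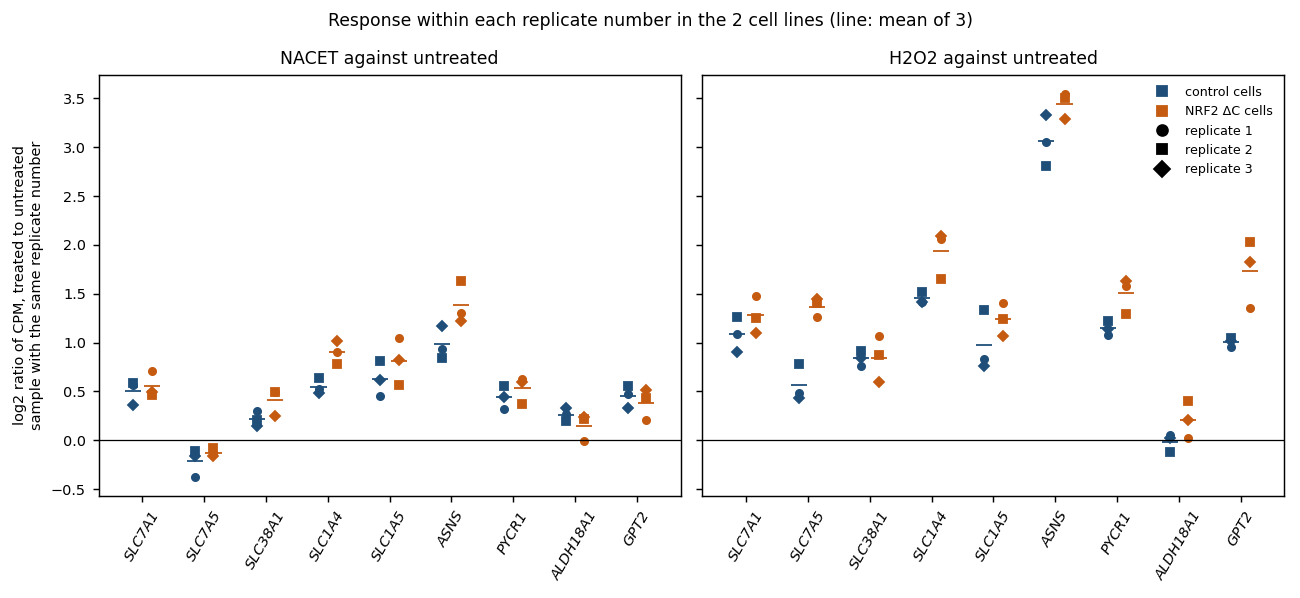
Log2 ratio of CPM between the treated and the untreated sample of the same replicate number (vertical axis) for 9 genes, with NACET on the left and H2O2 on the right, control cells in blue and NRF2 ΔC cells in orange; lines mark the mean of the 3 pairs. With H2O2 the 3 NRF2 ΔC pairs of SLC7A5 (1.26 to 1.44) and of GPT2 (1.35 to 2.03) all lie above the 3 control pairs (0.43 to 0.78 and 0.95 to 1.05). The same holds for SLC1A4 and PYCR1.

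The 2 treatments were also compared directly. In control cells 4 of the 10 genes were lower with NACET than with H2O2, where 1.43 % of 13581 genes were called lower and 3.67 % in all. These were ASNS (log2 -2.05, adjusted p = 0.00548), SLC1A4 (log2 -0.89, adjusted p = 0.0477), SLC7A5 (log2 -0.77, adjusted p = 0.0338) and PYCR1 (log2 -0.68, adjusted p = 0.0398). ASNS was the one called with each sample left out in turn. SLC1A4 was lost whichever of the 6 samples was left out (log2 -1.10 to -0.69, adjusted p = 0.0532 to 0.158), SLC7A5 without replicate 1 or 2 of either treatment (log2 -0.89 to -0.60, adjusted p = 0.0775 to 0.109), and PYCR1 on leaving out any sample other than NACET replicate 3 (log2 -0.80 to -0.57, adjusted p = 0.0510 to 0.149). The replicate block called 5, SLC38A1 in addition (log2 -0.60, adjusted p = 4.02e-06), against 7.50 % of all genes.

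The NRF2 ΔC line had 6 of the 10 lower with NACET than with H2O2, against 3.22 % of 13489 genes called lower and 8.31 % in all. ASNS (log2 -2.02, adjusted p = 0.00475), SLC7A5 (log2 -1.47, adjusted p = 0.00475) and GPT2 (log2 -1.34, adjusted p = 0.00475) were called with each sample left out. SLC1A4 (log2 -1.001, adjusted p = 0.0105) was lost without H2O2 replicate 2 (log2 -0.97, adjusted p = 0.0552). PYCR1 (log2 -0.95, adjusted p = 0.0255) was lost without replicate 2 or 3 of either treatment (log2 -1.09 to -0.87, adjusted p = 0.0662 to 0.106). SLC7A1 (log2 -0.70, adjusted p = 0.0166) was lost without H2O2 replicate 2 or NACET replicate 2 or 3 (log2 -0.78 to -0.61, adjusted p = 0.0637 to 0.0710). SLC1A5, with -0.33 (log2, adjusted p = 0.232) in control and -0.42 (log2, adjusted p = 0.249) in NRF2 ΔC cells, was called in neither line, and its NACET and H2O2 samples overlapped. The replicate block called 7, SLC38A2 in addition (log2 1.22, adjusted p = 0.0122), against 15.5 % of all genes.

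Between the lines, the gene that differed without treatment was SLC7A5. It was lower in NRF2 ΔC than in control cells (log2 -0.86, standard error 0.13, adjusted p = 0.00764), 1 of 10 called where 3.12 % of 13710 genes were called lower and 3.85 % in all. Under NACET it was again lower (log2 -0.80, standard error 0.15, adjusted p = 0.0201), 1 of 10 against 3.86 % of 13627 genes lower and 4.76 % in all. With H2O2 the lines were at -0.09 (log2, adjusted p = 0.78) and overlapped. The untreated call was lost without control replicate 2 (log2 -0.80, adjusted p = 0.0505), and the NACET call without control replicate 2 or 3 or NRF2 ΔC replicate 3 (log2 -0.82 to -0.69, adjusted p = 0.0502 to 0.0946).

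Under H2O2, 2 of the 10 genes were higher in NRF2 ΔC cells, where 1.41 % of 13580 genes were called higher and 5.62 % in all. These were ASNS (log2 0.93, standard error 0.20, adjusted p = 0.0243) and GPT2 (log2 0.70, standard error 0.15, adjusted p = 0.0295). Their samples lay wholly higher in NRF2 ΔC cells, as did those of PYCR1, ALDH18A1 and the nearly unread SLC38A2. These are 5 of the 10 genes, where 15 % of 14153 genes lay wholly higher. ASNS was lost without control replicate 1 or 3 or NRF2 ΔC replicate 2 or 3 (log2 0.73 to 0.96, adjusted p = 0.0601 to 0.107), and GPT2 on leaving out any sample other than NRF2 ΔC replicate 1 (log2 0.55 to 0.77, adjusted p = 0.0734 to 0.140). PYCR1 (log2 0.66, standard error 0.17, adjusted p = 0.0553) and SLC1A5 (log2 0.59, standard error 0.20, adjusted p = 0.116) were not called. Without NRF2 ΔC replicate 1, the lowest of its group in both, they were (log2 0.82, adjusted p = 0.00156, and log2 0.76, adjusted p = 0.00443). Under NACET, ASNS alone of the 10 was higher in NRF2 ΔC cells without overlap, where 12.6 % of 14153 genes were. ASNS was not called there (log2 0.94, standard error 0.25, adjusted p = 0.0804). It was called without NRF2 ΔC replicate 1 (log2 1.14, adjusted p = 0.0221), and so was SLC1A5 (log2 0.62, adjusted p = 0.0396).

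Whether a treatment acted differently in the lines was tested as an interaction over 12 samples, written as the response of control minus that of NRF2 ΔC cells. For H2O2 none of the 10 was called by edgeR, where 0.0214 % of 13987 genes were, although 2 had an unadjusted p under 0.05. Those were SLC7A5 (log2 -0.78, standard error 0.23, adjusted p = 0.418) and GPT2 (log2 -0.73, standard error 0.20, adjusted p = 0.401), and DESeq2 called none either. Within each line the replicate numbers paired the samples. With that block 3 of the 10 were called, all with the larger rise in NRF2 ΔC cells, against 2.42 % of genes called in that direction and 6.91 % in all. They were SLC7A5 (log2 -0.79, standard error 0.11, adjusted p = 0.000196), GPT2 (log2 -0.72, standard error 0.14, adjusted p = 0.00494) and SLC1A4 (log2 -0.46, standard error 0.14, adjusted p = 0.0484). PYCR1 (log2 -0.34, adjusted p = 0.0645) and ASNS (log2 -0.38, adjusted p = 0.0768) did not pass, and SLC38A1 was at 0.002 (log2, adjusted p = 0.994). For NACET none was called without the block, where 0.0643 % of 14002 genes were and none of the 10 had an unadjusted p under 0.05, nor with the block, where 0.900 % of genes were, and DESeq2 called none. The NACET interaction of ASNS was -0.40 (log2, standard error 0.40, adjusted p = 1), and that of SLC1A5 was -0.11 (log2, standard error 0.30, adjusted p = 1).

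Other genes of amino acid supply and its control were read in 4 lists. Of 12 regulators, 8 were higher with H2O2 in each line, where 2.96 % of all genes in control and 4.26 % in NRF2 ΔC cells were called higher. CHAC1, which breaks down glutathione, gave 3.69 (log2, adjusted p = 0.000836) in control and 4.99 (log2, adjusted p = 0.00123) in NRF2 ΔC cells. Its untreated means were low, at 1.24 and 1.47 CPM. TRIB3, a feedback inhibitor of ATF4, gave 2.20 (log2, adjusted p = 0.000954) and 3.81 (log2, adjusted p = 0.00118) in the same order. SESN2, a leucine sensor, gave 1.75 (log2, adjusted p = 0.000836) and 2.89 (log2, adjusted p = 0.00146). ATF4 itself was at 1.12 (log2, adjusted p = 0.00259) in control and 1.67 (log2, adjusted p = 0.00386) in NRF2 ΔC cells. NACET in control cells called ATF4 (log2 0.65, adjusted p = 0.0434) and TRIB3 (log2 0.68, adjusted p = 0.0484), where 2.75 % of all genes were called. In the edited line edgeR called none of the 12, of which 5 had an unadjusted p under 0.05. DESeq2 called 4 of the 12 in each line, against 4.22 % of all genes in control and 4.29 % in NRF2 ΔC cells. EdgeR with the replicate block called 4 in control and 5 in NRF2 ΔC cells, against 7.49 % and 8.82 % of all genes. Under H2O2, 6 of the 12 were higher in NRF2 ΔC than in control cells, against 1.41 % of all genes, led by TRIB3 (log2 1.64, adjusted p = 0.00785) and CHAC1 (log2 1.60, adjusted p = 0.00409). Between the treatments, 6 of the 12 in control and 8 in NRF2 ΔC cells were lower with NACET than with H2O2. Of all genes, 1.43 % and 3.22 % were.

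Of 19 other transporters, 13 passed the filter on low counts in the H2O2 comparison of each line, and 3 were higher and 1 lower in each, 4 called where 6.33 % and 9.81 % of all genes were. SLC6A9, a glycine transporter, rose by 3.93 (log2, adjusted p = 0.000836) in control and 3.64 (log2, adjusted p = 0.000291) in NRF2 ΔC cells. Its untreated means were low, at 1.35 and 3.5 CPM. SLC3A2, the partner chain of SLC7A5, rose by 0.87 (log2, adjusted p = 0.0026) and 1.54 (log2, adjusted p = 0.00851), and SLC6A15, a carrier of branched-chain amino acids and proline, by 0.87 (log2, adjusted p = 0.00189) and 1.11 (log2, adjusted p = 0.0085). SLC1A1, which takes up glutamate and cysteine, fell (log2 -1.12, adjusted p = 0.0153 and log2 -1.43, adjusted p = 0.0211). With the replicate block 5 and 7 of the transporters were called, against 10.2 % and 18.7 % of all genes. With NACET edgeR called none in either line, where the unadjusted p was under 0.05 for 4 in control cells and 6 in the edited line. DESeq2 called 2 in each line (4.22 % and 4.29 % of all genes), as did edgeR with the replicate block (7.49 % and 8.82 %). Of the 13 transporters tested between the treatments in each line, 1 was higher and 1 lower with NACET than with H2O2. Of all genes, 3.67 % were called in control and 8.31 % in NRF2 ΔC cells. The higher one was SLC1A1 in both lines (log2 1.81, adjusted p = 0.00383 and log2 1.99, adjusted p = 0.00767).

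Of 15 other enzymes, 14 were tested with H2O2, where 6.33 % of all genes in control and 9.81 % in NRF2 ΔC cells were called. In control cells 1 was called, near the share over all genes, GOT1, the cytosolic aspartate aminotransferase (log2 0.85, adjusted p = 0.0106). In the edited line 4 were, among them PRODH, the proline-degrading dehydrogenase (log2 2.51, adjusted p = 0.0174), GOT1 (log2 1.51, adjusted p = 0.00568) and BCAT1, the cytosolic branched-chain aminotransferase (log2 0.81, adjusted p = 0.0314). PRODH lay near the floor, at a mean of 0.216 CPM untreated and 1.28 ± 0.676 CPM with H2O2 (SD, n = 3) in this line. The median log2 fold changes over the tested enzymes were 0.02 and 0.07, against 1.01 and 1.30 among the 10 genes. Of 4 genes of serine and glycine synthesis, PHGDH, PSAT1 and PSPH of the serine pathway and SHMT2, which interconverts serine and glycine, all but PSPH rose in control cells and all 4 in NRF2 ΔC cells, with PSAT1, the phosphoserine aminotransferase, at 2.77 (log2, adjusted p = 0.00202) and 2.85 (log2, adjusted p = 0.00105). With NACET edgeR called none of these 19 genes without the block, where the unadjusted p was under 0.05 for 3 in control cells and 1 in the edited line. DESeq2 called 1 of the serine and glycine genes in each line, against 4.22 % and 4.29 % of all genes. With the block edgeR called PSAT1 in both lines (log2 0.99, adjusted p = 4.07e-36 and log2 0.998, adjusted p = 1.06e-07) and 1 of the enzymes, lower, in NRF2 ΔC cells. Between the lines, ALDH4A1, which follows PRODH in proline breakdown, was lower in NRF2 ΔC cells in each condition (log2 -1.36 untreated, -1.33 with NACET and -1.17 with H2O2, adjusted p = 0.00325, 0.00114 and 0.00715).

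Over the 18 samples, 9 of the 10 genes could be compared in shape, each with the mean of the others on a standardized log2 scale. Pearson's r was 0.975 for SLC7A1, 0.965 for SLC1A4, 0.964 for GPT2, 0.948 for ASNS, 0.911 for PYCR1, 0.825 for SLC38A1 and 0.808 for SLC1A5, and lower for SLC7A5 (0.571) and ALDH18A1 (0.223). Of 10998 other genes with at least 5 CPM on average, the 5 most like the mean of the genes were CHAC1 (0.983), FLAD1 (0.981), C9orf91 (0.978), MARS (0.977) and XPOT (0.973). CHAC1 passed the limit of 5 CPM only through its H2O2 samples, with means of 15.95 CPM in control and 49.07 CPM in NRF2 ΔC cells. Its means in the other groups were 1.24 to 4.35 CPM. MARS, a methionyl-tRNA synthetase, was at 103 ± 6.11 CPM in untreated, 143 ± 14.3 in NACET-treated and 269 ± 31.8 CPM in H2O2-treated control cells (SD, n = 3 each). XPOT, a tRNA exporter, was at 94.6 ± 12.4, 152 ± 20.4 and 252 ± 34.2 CPM. These correlations are descriptions, since the samples share 2 lines, 3 treatments and their replicate numbers.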

How the data were processed

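The authors sequenced TruSeq mRNA libraries as single-end reads, mapped them to hg19 (GRCh37) with TopHat 2.1.0 and counted them without strand with HTSeq-count 0.11.2. The annotation is not given in the sources used here. The deposited values are raw counts for 23411 symbols per sample. The 5 summary lines of each file, among them reads on no feature (15.0 to 17.5 %), ambiguous reads (0.955 to 1.18 %) and multiply mapped reads (8.24 to 10.4 % of reads), stayed out of library sizes and tests. Reads over 2 genes or several places were thus lost to the genes.

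Samples were grouped by their labels. Nothing says whether replicates were separate cultures. The p-values measure the spread between these samples, moderated by the spread shared across genes, and both may be technical. All 18 replicate pairs differed beyond counting error (chi-square per degree of freedom from 10.5). Each comparison was fitted over all genes on its 6 samples (interactions, 12) with edgeR 4.0.16 (R 4.3.3), using filterByExpr, TMM and the quasi-likelihood test, with p-values adjusted after Benjamini-Hochberg. Genes were called at an adjusted p under 0.05 and a fold change whose log2 was 0.6 or more in size, interactions on the adjusted p alone. Levels are CPM from these counts with 1 TMM normalization over 18 samples. They were divided by transcript length (GENCODE, GRCh37) only to compare genes. The tests were tried on simulated counts for some of the comparisons. Those counts were drawn independently, with the same dispersion for all genes and no effect shared by replicate number. They therefore do not show how the block fits behave in these data.

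Same-numbered samples within a line deviated together (correlations of deviations from the group means, 0.471 to 0.874 over 11007 genes). The labels give the numbers, and no source says what they mark. Fits of 6 samples with the number as a block have 2 residual degrees of freedom and a prior of 5.54 to 382 shared across genes. The interaction fits with a block in each line have 4, with a prior of 12.1 (NACET) and 13.8 (H2O2). The p-values of all these block fits thus rest mostly on spread borrowed from other genes. The alternatives were this block, DESeq2 1.42.0, RLE size factors, other filters on low counts, no fold limit, 1 fit of all 18 samples and leaving out each sample. The 10 genes and the lists were chosen with earlier results of these data known. Besides the 10, called list genes were named, at most 4 per list and comparison by size of change (1 of them is not reported here), and the 5 genes most like the mean of the 10 in log2 CPM (0.1 CPM added). Sequences are from RefSeq.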

Additional observations from a re-analysis of the deposited data

Results flagged for a closer look

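With the replicate number as a block within each line, the rise with H2O2 was larger in NRF2 ΔC than in control cells for SLC7A5 (difference of the log2 responses, control minus NRF2 ΔC, -0.79, edgeR, adjusted p = 0.000196), GPT2 (-0.72, adjusted p = 0.00494) and SLC1A4 (-0.46, adjusted p = 0.0484). These are 3 of 10 genes, where 6.91 % of all genes were called. Without the block none was called. SLC7A5, GPT2 and SLC1A4 rose more in each of the 3 NRF2 ΔC pairs than in any control pair. So did PYCR1 (log2 1.30 to 1.63 against 1.08 to 1.22), which was not called. The block fit used these same pairs, and the share of all genes with such a pattern was not counted. SLC7A5 started lower in NRF2 ΔC cells, whereas GPT2 and SLC1A4 overlapped between the untreated lines. Of the other lists, the same block called 8 of 12 regulators, 3 of 4 serine and glycine genes, 1 of 13 tested transporters (SLC3A2, -0.65, adjusted p = 0.00389) and 1 of 14 tested enzymes (GOT1, -0.66, adjusted p = 0.0110), all with the higher response in NRF2 ΔC cells. All NRF2 ΔC samples come from 1 clone, so the edit and the clone cannot be told apart. No group here is large enough for a test of single outlying samples.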

How the results depend on the processing

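The counts of called genes among the 10 that moved by more than 1.5 times were these. NACET in control cells (1) gave 2 with DESeq2, where 4.22 % of genes were called, and with the replicate block, and 0 in 1 fit of all 18 samples. NACET in NRF2 ΔC cells (1) gave 3, and the comparison of the lines under NACET (1) gave 2, with each of these 3 settings (DESeq2, 4.29 % and 5.44 % of genes). The H2O2 interaction (0) gave 2 with the replicate block (1.18 % of genes) and 3 with it within each line. Between the lines the numbers were not taken to pair the samples, since replicate 2 correlated at -0.259 to -0.0390, although replicate 1 (0.712 to 0.777) and replicate 3 (0.593 to 0.710) went together, and the block added ASNS under NACET (log2 0.94, adjusted p = 0.000129, with 7.47 % of genes called) and PYCR1 under H2O2 (log2 0.65, adjusted p = 0.000844, 11.2 %). The other counts stayed within 1.5 times the main one under RLE size factors, both filters on low counts, no fold limit, DESeq2, 1 fit of all samples and the block.

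Leaving out 1 sample at a time gave 0 to 1 (NACET, control), 0 to 2 (NACET, NRF2 ΔC), 6 to 8 (H2O2, each line), 1 to 4 and 3 to 6 (NACET against H2O2 in control and NRF2 ΔC cells), and, between the lines, 0 to 1 untreated, 0 to 3 under NACET and 0 to 4 under H2O2. Both interactions stayed at 0. The fits with 1 sample fewer have fewer degrees of freedom.

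Fitted log2 fold changes that changed sign were all uncalled. SLC38A1 in the H2O2 interaction was -0.02, and 0.0034 and 0.0022 with the 2 blocks, and -0.18 to 0.12 with 1 sample left out. In the latter fits ALDH18A1 ranged from -0.082 to 0.059 with H2O2 in control cells and SLC38A2 from -0.58 to 0.73 with NACET in NRF2 ΔC cells. Between untreated lines SLC38A1 ranged from -0.11 to 0.10, SLC1A4 from -0.36 to 0.012, ALDH18A1 from -0.13 to 0.094 and GPT2 from -0.10 to 0.055, under NACET SLC38A2 from -1.23 to 1.13, and under H2O2 SLC7A5 from -0.22 to 0.062 and SLC38A1 from -0.12 to 0.19. In the NACET interaction SLC7A1 ranged from -0.12 to 0.091, SLC7A5 from -0.18 to 0.066, SLC1A5 from -0.30 to 0.10, PYCR1 from -0.25 to 0.14 and GPT2 from -0.011 to 0.24, and in the H2O2 interaction SLC38A2 from -0.13 to 0.78. The cause was not tested. RLE size factors moved none of 60 group levels by more than 0.869 %.

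With 4 to 59 counts per sample, the differences of SLC38A2 are poorly determined, and the cause of its low counts was not tested.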
